A study of Mus musculus with 51 samples.

Results

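The sites described here are the regions that carried H3K27ac in astroglial progenitors (aNPC) and had no H3K27ac peak in late astrocytes (lA), divided by whether lA still had H3K4me1 over them. They were found by overlap of at least 1 bp on chromosomes 1 to 19. Of 77553 aNPC H3K27ac peaks, 35174 overlapped no lA H3K27ac peak and are called absent. Of these, 19729 overlapped an lA H3K4me1 peak (keepers) and 15445 did not (non-keepers). The 6 peak lists of the series held 784577 peaks on these chromosomes.

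The cells were made in vitro from mouse embryonic stem cells of C57/BL-6 background, so each stage is a cell culture and not a brain tissue. The aNPC were grown with N2 supplement, EGF and FGF-2, and were then moved to a medium with LIF and a low dose of fetal bovine serum, in which they became early astrocytes (eA, day 1) and lA (day 5). No allele or knockdown distinguishes these groups. For each stage and mark 2 biological replicates were sequenced, and the authors called 1 peak list on their merged reads, without an input control.

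Enhancers are stretches of regulatory DNA that act on genes from a distance. Nucleosomes at an active enhancer carry both H3K4me1, monomethylation of lysine 4 of histone H3, and H3K27ac, acetylation of lysine 27, which is put on by the acetyltransferases p300 and CBP. An enhancer with H3K4me1 and no H3K27ac is called primed when it comes before activity. H3K4me1 can also outlast the acetylation, a state for which the term enhancer memory is used. In this tissue lineage, progenitors depend on EGF and FGF signals and on factors such as Sox2 and Olig2, and LIF signalling through Stat3 drives the astrocyte program.

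The stage labels were set beside marker genes by peaks at their promoters, here the stretch that begins 1 kb before a coding start site and ends 100 bp after it. Over all 21281 autosomal coding genes, 51.2% had an H3K27ac peak there in aNPC and 48.9% in lA. In aNPC, 13 of 19 autosomal neural progenitor genes had an H3K27ac peak at a promoter, among them Nes, Sox2 and Pax6. In lA, 16 of 23 astrocyte genes had one, among them Gfap, Aqp4 and Slc1a3, and 15 of the 23 had one in aNPC. For other cell types the lA counts were 6 of 23 proneural and neuronal genes, 2 of 16 oligodendrocyte lineage genes, 3 of 18 genes of microglia, endothelium and mural cells and 3 of 15 pluripotency genes. In lA too, 13 of the 19 neural progenitor genes had a promoter H3K27ac peak.

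The strongest sites are described first. Sites are ranked by the −log10 q of the aNPC H3K27ac peak, which the peak caller of the authors gave for its summit, among distal sites over 1 kb from any lA H3K27ac peak. The strongest keeper, chr6:83266253-83267648 (mm9), lay in an intron of Mthfd2, a mitochondrial enzyme of folate metabolism, 0.649 kb from its start site, with a −log10 q of 316. Next came a site in an intron of Acap3, a regulator of Arf GTPases, at chr4:155275607-155276569 with a −log10 q of 256. The third, chr12:81269169-81269650 with a −log10 q of 240, lay in an exon of Actn1, an actin-binding protein, and its nearest start site was that of Zfp36l1, which promotes mRNA decay, 55.4 kb away. At the Mthfd2 and Acap3 sites the lA H3K4me1 peaks overlapped the H3K27ac peak but not its summit, and at the site near Zfp36l1 the lA peak covered it. These keepers differed in their history of methylation. H3K4me1 was present over the Mthfd2 and Acap3 sites at all 3 stages, whereas the site near Zfp36l1 had none in aNPC and eA and an H3K4me1 peak only in lA.

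The strongest non-keeper, chr17:47131172-47132813, lay in an intron of Ubr2, a ubiquitin ligase, with a −log10 q of 195. It had H3K4me1 peaks in aNPC and eA, and the nearest H3K4me1 peak in lA was 9977 bp away. The next, chr11:119569983-119570584, lay in an intron of Rptor, a subunit of mTOR complex 1, with a −log10 q of 157, and an lA H3K4me1 peak began 50 bp outside it. The next after that, chr5:4880665-4881578, lay in an intron of Cdk14, a cyclin-dependent kinase, with Fzd1 as its nearest start site and a −log10 q of 142. It had H3K4me1 in aNPC alone, and an lA H3K4me1 peak lay 138 bp away. Thus 2 of these 3 non-keepers had an lA H3K4me1 peak beside them without any overlap.

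Among the neural progenitor genes, the strongest keeper lay near Olig2, which encodes a bHLH factor of progenitors and oligodendrocyte precursors, at chr16:91233001-91233832, 7.62 kb from the start site. Its H3K27ac −log10 q was 71.2. An H3K4me1 peak overlapped it at each stage, with a −log10 q of 16.0 at the first, 5.96 at the next and 3.47 at the last. Values of different lists depend on their read depth, which is unknown here, so these 3 numbers show presence and not amount. The lA H3K4me1 peak began 3′ of the H3K27ac summit on the forward strand and did not cover it. The strongest non-keeper of that list was near Sox2, the factor that maintains neural progenitors, at chr3:34559015-34559530, 10215 bp from the start site, with an H3K27ac −log10 q of 37.4. It had H3K4me1 in aNPC (−log10 q 5.89) and none in eA or lA.

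The DNA under the summit of a keeper and a non-keeper is shown for this progenitor pair and for the 2 strongest keepers and the 2 strongest non-keepers whose window holds no exon. Those 2 keepers, near Rtkn2 and Dntt, were chosen after their values were seen, because the windows of the 3 strongest keepers overlap exons. The lA H3K4me1 peak covered the summit at Rtkn2 and Dntt, and the printed window of Olig2 lay outside it. Each run is 200 bases of the forward strand of mm9, centred on the aNPC H3K27ac summit, and capitals mark exact matches on either strand to any of 10 motifs that are spelled out with the motif counts.
Olig2 keeper, chr16:91233376-91233575: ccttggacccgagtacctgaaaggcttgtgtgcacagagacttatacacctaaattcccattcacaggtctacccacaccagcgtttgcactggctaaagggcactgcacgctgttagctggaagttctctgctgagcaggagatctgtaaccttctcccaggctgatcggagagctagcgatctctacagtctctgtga
Sox2 non-keeper, chr3:34559110-34559309: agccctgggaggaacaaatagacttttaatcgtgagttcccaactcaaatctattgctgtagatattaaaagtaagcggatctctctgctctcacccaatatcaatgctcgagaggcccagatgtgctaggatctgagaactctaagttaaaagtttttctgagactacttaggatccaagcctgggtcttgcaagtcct
Rtkn2 keeper, chr10:67429346-67429545: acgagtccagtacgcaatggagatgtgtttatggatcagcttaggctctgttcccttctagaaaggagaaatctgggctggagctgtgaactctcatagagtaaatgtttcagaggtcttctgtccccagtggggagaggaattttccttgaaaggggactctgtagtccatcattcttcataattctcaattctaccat
Dntt keeper, chr19:41097374-41097573: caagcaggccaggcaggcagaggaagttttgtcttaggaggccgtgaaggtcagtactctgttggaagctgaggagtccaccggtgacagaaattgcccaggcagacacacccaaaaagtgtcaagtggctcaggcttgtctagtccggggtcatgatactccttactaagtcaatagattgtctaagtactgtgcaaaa
Ubr2 non-keeper, chr17:47131732-47131931: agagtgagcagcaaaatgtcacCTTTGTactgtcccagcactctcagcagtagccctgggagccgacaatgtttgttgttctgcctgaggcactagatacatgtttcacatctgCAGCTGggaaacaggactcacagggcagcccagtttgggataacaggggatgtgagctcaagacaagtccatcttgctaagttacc
Rptor non-keeper, chr11:119570236-119570435: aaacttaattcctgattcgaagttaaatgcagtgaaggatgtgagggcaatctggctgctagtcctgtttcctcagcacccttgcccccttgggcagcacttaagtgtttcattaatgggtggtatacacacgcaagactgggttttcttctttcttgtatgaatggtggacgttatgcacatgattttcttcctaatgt
Of these 6 windows only that of Ubr2 held a match, 1 to the SOX letters and 1 to the CAGCTG E-box. The G+C content ran from 44.5% to 52.0% in the 3 keeper windows and from 43.0% to 50.5% in the 3 non-keeper windows, so both outcomes overlapped in composition.

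The first comparison asked how much of the progenitor acetylation lies on H3K4me1 of late astrocytes. Of all aNPC H3K27ac peaks, 72.2% (55959 of 77553) overlapped an lA H3K4me1 peak. The lA H3K4me1 list covered 4.69% of the autosomes, which is a share of bases and so not a baseline for the rule of 1 bp. The share was 85.5% (95% Wilson interval 85.2 to 85.8%) for the 42379 peaks still acetylated at lA and 56.1% (55.6 to 56.6%) for the 35174 absent peaks. The difference was 29.4 percentage points (95% Newcombe interval 28.8 to 30.0). These intervals and all others given here cover counting error over peaks only, since single peaks do not replicate a stage and merged lists give no error between cultures. The length of the list bears on the level. With every list reduced to its 77553 peaks of highest −log10 q, 32.1% of absent peaks kept H3K4me1, and the difference from peaks still acetylated was 35.1 points.

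**Figure D1:**
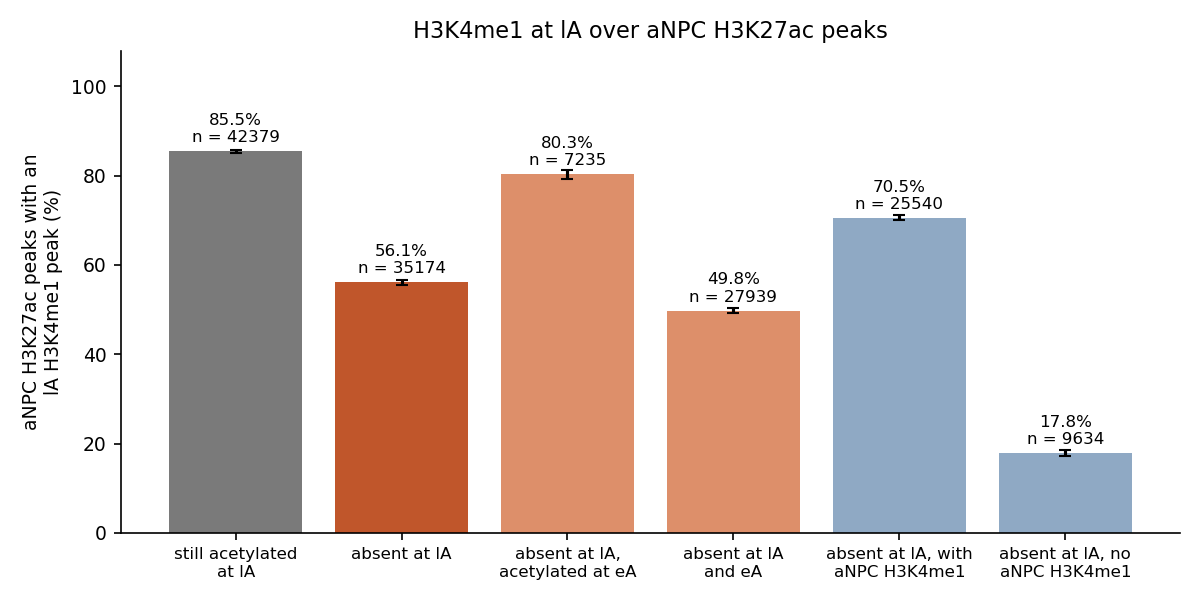
Share of aNPC H3K27ac peaks that overlap an lA H3K4me1 peak, in percent, by acetylation at later stages and by H3K4me1 in aNPC. Bars are shares over peaks and error bars 95% Wilson intervals. Peaks still acetylated reach 85.5%, absent peaks 56.1%, and absent peaks without aNPC H3K4me1 17.8%.

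When acetylation was last seen divided the absent peaks further. Of 7235 absent peaks that still had H3K27ac in eA, 80.3% kept H3K4me1 at lA (79.3 to 81.2%). Of 27939 absent peaks that had already left the eA list, 49.8% did (49.2 to 50.4%), a difference of 30.4 points (29.3 to 31.5). The sites acetylated for longer were thus the more often methylated at lA. The difference stayed among sites with H3K4me1 in aNPC, where 87.5% of 6383 peaks with eA H3K27ac and 64.9% of 19157 without it kept H3K4me1. Without H3K4me1 in aNPC, the shares were 25.7% of 852 and 17.0% of 8782. Among absent peaks in the lowest quintile of −log10 q, 79.1% with eA H3K27ac and 41.2% without it were keepers. In the highest quintile these shares were 79.7% and 64.3%, so the difference was smaller among strong peaks.

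H3K4me1 was far more frequent at keepers than at non-keepers already in aNPC. It was present at 91.3% of keepers and 48.7% of non-keepers, a difference of 42.6 points (41.7 to 43.5). In turn, 70.5% (70.0 to 71.1%) of the 25540 absent peaks with aNPC H3K4me1 kept it at lA, and 17.8% (17.1 to 18.6%) of the 9634 without it had an lA H3K4me1 peak. For peaks still acetylated these shares were 91.5% of 38234 and 30.1% of 4145. The keepers therefore hold 1715 sites at which lA H3K4me1 was not kept from aNPC, because the aNPC list had no H3K4me1 peak there. The remaining 18014 keepers had H3K4me1 at both ends of the course. Counts of sites that keep H3K4me1 are counts of keepers throughout, whether or not aNPC had the mark.

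The whole course of H3K4me1 over aNPC, eA and lA took few forms. At 17234 absent sites (49.0%) H3K4me1 was found at all 3 stages, and these made up 87.4% of the keepers. At 7066 sites (20.1%) it was found at none, and these made up 45.7% of the non-keepers. H3K4me1 present in aNPC and eA and missing in lA came next with 5073 sites (14.4%), and H3K4me1 in aNPC alone with 2453 (6.97%). The other courses were rare, between 780 and 915 sites each, and 2 of them, with 915 and 800 sites, reached H3K4me1 at lA without having it in aNPC. Acetylation in eA was seen at 31.7% of the sites with H3K4me1 at all 3 stages, at 11.5% of those that lost it between eA and lA, and at 7.84% of those that never had it.

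**Figure D2:**
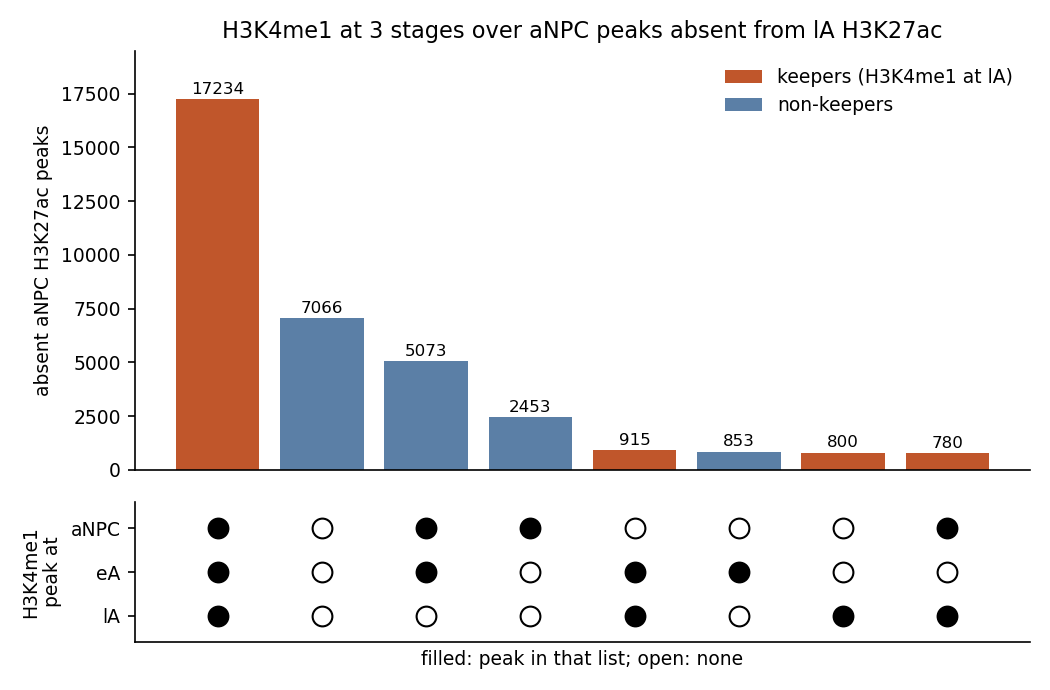
Number of aNPC H3K27ac peaks absent from the lA H3K27ac list for each combination of H3K4me1 peaks at aNPC, eA and lA. Filled circles mark stages with an H3K4me1 peak. H3K4me1 at all 3 stages (17234 sites) and at none (7066 sites) are the most frequent courses.

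Keepers were wider and stronger in aNPC than non-keepers. The median width of the H3K27ac peak was 349 bp (quartiles 232 and 564) for keepers and 260 bp (200 and 386) for non-keepers, and 608 bp for peaks still acetylated. The median −log10 q was 7.24 (4.74 and 12.8) for keepers, 5.67 (4.13 and 8.87) for non-keepers and 18.8 for peaks still acetylated. For peaks still acetylated the quartiles were 358 and 965 bp in width and 7.68 and 55.0 in −log10 q. Keepers and non-keepers thus overlapped widely, whereas the quartile ranges of non-keepers and peaks still acetylated overlapped little. The aNPC H3K4me1 peaks under keepers had a median width of 782 bp and a median −log10 q of 19.3, and those under non-keepers 527 bp and 11.3. Those under peaks still acetylated had 835 bp and 22.6, and the whole aNPC H3K4me1 list 472 bp and 10.6.

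The share of keepers was higher among larger aNPC peaks. A wider peak meets the rule of 1 bp more easily, so width is partly built into this share. With the absent peaks divided by −log10 q into 5 quintiles it was 45.3% in the weakest, 54.0% in the middle and 70.4% in the strongest, and by width it was 42.9%, 53.8% and 74.3%. When only the summit had to lie inside the lA H3K4me1 peak, an alternative added after seeing the data, the weakest and strongest quintiles had 36.2% and 51.5%, and the narrowest and widest 35.9% and 51.5%. The differences between them were thus smaller, 15.4 in place of 25.2 points for −log10 q and 15.7 in place of 31.4 points for width. With aNPC H3K4me1 the share went from 64.2% to 78.7% over the quintiles of −log10 q, and without it from 17.6% to 18.8%, with a lowest value of 17.1%. Over the quintiles of width it went from 63.6% to 79.4% with aNPC H3K4me1 and from 16.2% to 25% without it. When the summit had to lie inside the H3K4me1 peak, in aNPC as in lA, the share with aNPC H3K4me1 went from 58.5% to 62.7% over −log10 q and from 59.0% to 61.3% over width. Without it the share went from 14.2% to 13.9% over −log10 q and from 14.2% to 15.9% over width. In each quintile of width, H3K4me1 in aNPC was more frequent at keepers than at non-keepers, by 24.0 points in the widest and by 47.7 points in the narrowest. Even among the 120 absent peaks with a −log10 q of at least 100, 79.2% were keepers.

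**Figure D3:**
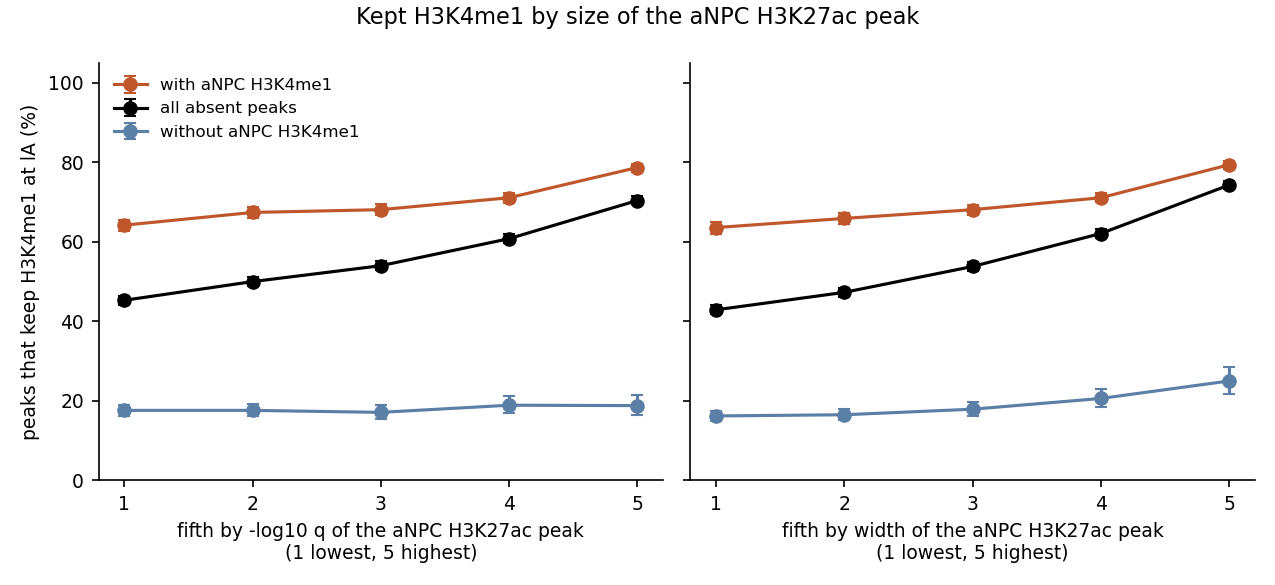
Percentage of absent aNPC H3K27ac peaks that keep H3K4me1 at lA, by quintile of −log10 q (left) and of width (right) of the aNPC peak. Points are shares over peaks and error bars 95% Wilson intervals, for all absent peaks (black), those with aNPC H3K4me1 (orange) and those without (blue). Over the quintiles of −log10 q the blue points lie between 17.1% and 18.9%, and over those of width they go from 16.2% to 25%.

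Most keepers had their acetylation summit inside H3K4me1. At 77.0% of keepers the aNPC H3K27ac summit lay inside the lA H3K4me1 peak, and a median of 79.1% of the H3K27ac peak was covered. Peaks still acetylated that overlapped lA H3K4me1 had values close to these, 77.6% and 83.7%. In aNPC, H3K4me1 covered the summit at 82.1% of keepers and at 72.5% of peaks still acetylated. Keepers were selected by lA H3K4me1 and peaks still acetylated were not, so this difference is partly built in. Among those that overlapped aNPC H3K4me1, the shares were 89.9% and 80.3%. The position 1 kb downstream lay in aNPC H3K4me1 for 20.4% of keepers and 33.7% of peaks still acetylated. Methylation thus reached less far around keepers. Around non-keepers the lA H3K4me1 list left a gap at the summit that the rule itself makes, and 13.7% of the positions 1 kb to either side lay in an lA H3K4me1 peak. The nearest lA H3K4me1 peak was at a median of 1106 bp from a non-keeper, within 500 bp for 36.5% and within 200 bp for 17.7%. Many non-keepers thus lay beside lA H3K4me1.

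**Figure D4:**
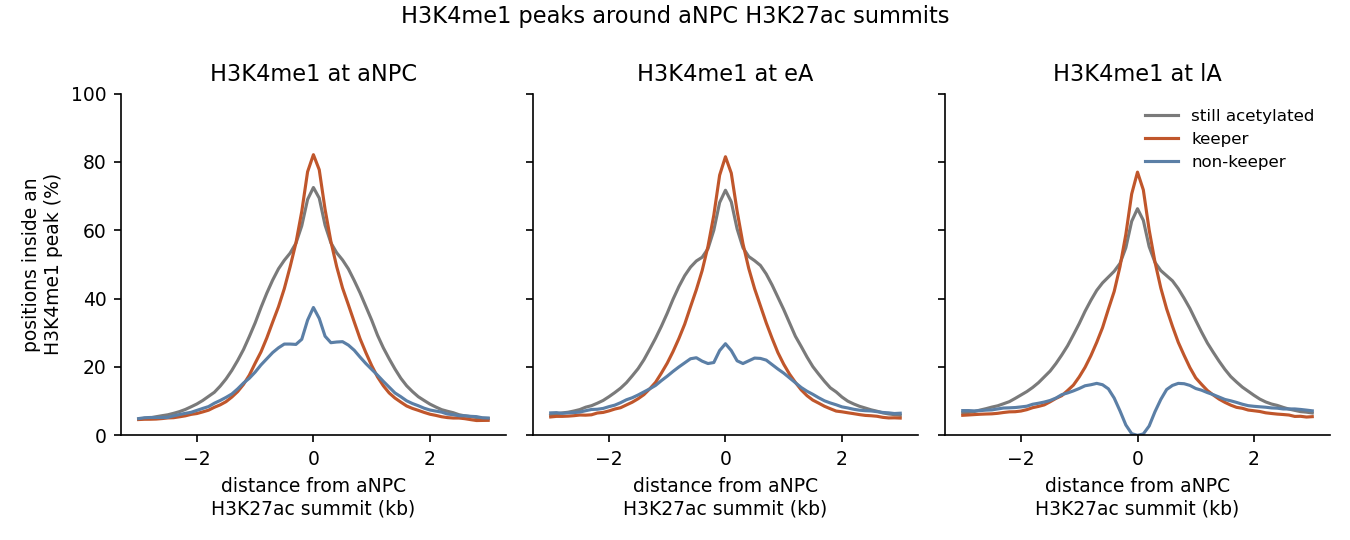
Percentage of positions that lie inside an H3K4me1 peak of aNPC, eA or lA, by distance in kb from the aNPC H3K27ac summit on the forward strand. Lines are the peaks still acetylated at lA (grey), keepers (orange) and non-keepers (blue). At the summit the lA values are 66.3%, 77.0% and 0%. The last 2 are shaped by the definition of keepers and non-keepers, and among peaks that overlap lA H3K4me1 the share is 77.6% for those still acetylated.

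Keepers were more frequent close to regions that had H3K27ac at lA. Of the absent peaks, 75.1% lay over 1 kb from any lA H3K27ac peak, with 71.0% of keepers and 80.5% of non-keepers. The share of keepers was 72.3% under 200 bp (2629 peaks), 62.6% from 200 to 1000 bp (6111), 53.1% from 1 to 5 kb (6439), 54.3% from 5 to 20 kb (11093) and 51.3% beyond (8902). At 14.3% of keepers, the lA H3K4me1 peak itself also reached an lA H3K27ac peak. Absent peaks under 1 kb apart can lie under 1 lA H3K4me1 peak, so their states are partly tied by the overlap rule. This was so for 2382 (69.8%) of the 3413 such neighbouring pairs in which both were keepers. After a keeper the next absent peak was a keeper in 68.5% and after a non-keeper in 38.6% of 9011 such pairs in all. For neighbours 1 kb or more apart, these shares differed by 1.16 to 3.78 points.

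By genomic class, keepers made up 61.0% (58.6 to 63.4%) of 1552 absent promoter peaks, 55.7% of 1169 in exons, 57.6% of 16099 in introns and 54.2% of 16354 in intergenic DNA. Promoter acetylation was seldom absent at lA, at 17.7% of 8786 aNPC promoter peaks against 54.0% of 30283 intergenic ones. The promoter share exceeded that of all distal sites (55.9%) by 5.16 points (2.65 to 7.61). This difference was not stable. It was 14.8 points (10.8 to 18.5) over 1 kb from lA H3K27ac, and −0.290 points (−2.87 to 2.25) when all lists were restricted to peaks whose −log10 q was 5 or more. From the weakest to the strongest quintile of −log10 q it went from 20.9 to −12.7 points. Farther from start sites the share of keepers was lower, with 63.3% under 1 kb, 57.8% from 5 to 20 kb and 49.2% beyond 200 kb. Along the chromosomes the share varied between 52.6% and 59.8%.

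The same overlap was then counted from the lA H3K4me1 peaks. Of 203377 lA H3K4me1 peaks, 26.1% (25.9 to 26.3%) overlapped an aNPC H3K27ac peak. The share was 52.1% of the 68754 that carried H3K27ac at lA and 12.8% of the 134623 that did not, a difference of 39.3 points (38.9 to 39.7). With lists of equal length, the overall share was 42.8%. The 17272 lA H3K4me1 peaks with H3K27ac in aNPC and none in lA had a median width of 497 bp (quartiles 322 and 752) and a median −log10 q of 9.89 (6.22 and 15.8). The 117351 peaks with neither had 354 bp (247 and 546) and 6.84 (4.65 and 10.6), and the 35839 with both had 779 bp (493 and 1135) and 16.7 (10.6 and 24.0). The 32915 with H3K27ac in lA only had 643 bp (398 and 970) and 12.9 (7.83 and 19.3). The peaks with H3K27ac in aNPC only thus had lower medians than both groups with lA H3K27ac and higher ones than the peaks with neither, with overlapping quartiles. H3K4me1 was already present in aNPC at 91.7% of them, at 96.7% of the peaks with both, at 56.5% of those with H3K27ac in lA only and at 37.3% of those with neither.

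Genes were assigned to distal sites by the nearest coding start site, for intragenic sites at any distance and for intergenic sites up to 50 kb away. Distal means outside the promoter stretch, so sites more than 100 bp past a start site count as distal. Of 51689 distal aNPC H3K27ac sites with a gene, 45.9% were absent at lA, and of these 23704 sites 57.5% (13639) were keepers. They fell to 7352 genes, of which 5830 had a keeper, 4629 a non-keeper and 3107 both. Among the 623 genes with at least 8 absent distal sites, the median share of keepers was 56.2% (quartiles 44.4 and 66.7%). At 7 of these genes every site was a keeper, and at none of them was every site a non-keeper.

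The 10 genes with the most keepers were long, from 240 to 1135 kb. Kirrel3, which encodes an immunoglobulin-type adhesion protein of synapses and spans 551 kb (chr9:34293711-34844301), had 34 keepers among 48 absent sites. Auts2, a nuclear protein of brain development, had 30 of 52, Opcml, an IgLON adhesion protein, 24 of 38, and Sema5a, a semaphorin, 24 of 40. The others of the top 10 were Arhgap26 (22 of 29), Cdkal1 (21 of 41), Dennd1a (20 of 26), Rapgef5 (20 of 33), the nuclear receptor gene Rora (20 of 34) and Sema6d (20 of 31). Auts2, Cdkal1 and Sema5a were also among the 10 genes with the most non-keepers. The others of those 10 were Cntn5, a contactin with 20 non-keepers of 32, Grm5, a metabotropic glutamate receptor with 19 of 28, Zeb1, a repressor of epithelial genes with 19 of 27, Rptor (18 of 32), Sh3gl2, an endophilin of synaptic vesicles (16 of 26), 5033411D12Rik (15 of 19) and Cadm2, a synaptic adhesion protein (15 of 21). Thus 3 genes stood in both rankings, which also reflect how many sites a gene has. H3K4me1 in aNPC varied among the genes with the most non-keepers, from 6 of 27 sites at Zeb1 and 12 of 28 at Grm5 to 33 of 41 at Cdkal1, 26 of 32 at Rptor and 43 of 52 at Auts2, and was found at 40 of the 48 Kirrel3 sites.

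By share, the highest were Tpd52 (11 of 11), Ptprt, a receptor phosphatase (10 of 10), Pdgfc, a platelet-derived growth factor (9 of 9), Aqp6, BC007180, Chd7, a chromatin remodeller, and Tcf7l1, a transcription factor of the Wnt pathway (each 8 of 8), and Chn1, which acts on Rac (10 of 11). The lowest were Fam5c (1 of 16), E030025P04Rik (1 of 10), Ghsr, the ghrelin receptor (1 of 9), and Fndc1, Gm10462, Rmnd5a, Tnrc6c and Ttc39c (each 1 of 8). H3K4me1 in aNPC did not follow this order at every gene. It was found at all sites of Ptprt, Aqp6, Tcf7l1 and Chn1 and at 7 of 9 sites of Pdgfc, but also at 7 of 9 sites of Ghsr and at 6 of 10 of E030025P04Rik. At the other genes of the lowest shares it was found at 4 of 16 sites (Fam5c) and at 3 or 4 of 8. These genes were chosen by their share, and the few sites at each leave wide intervals, from 67.6 to 100% for 8 of 8 and from 2.24 to 47.1% for 1 of 8.

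**Figure D5:**
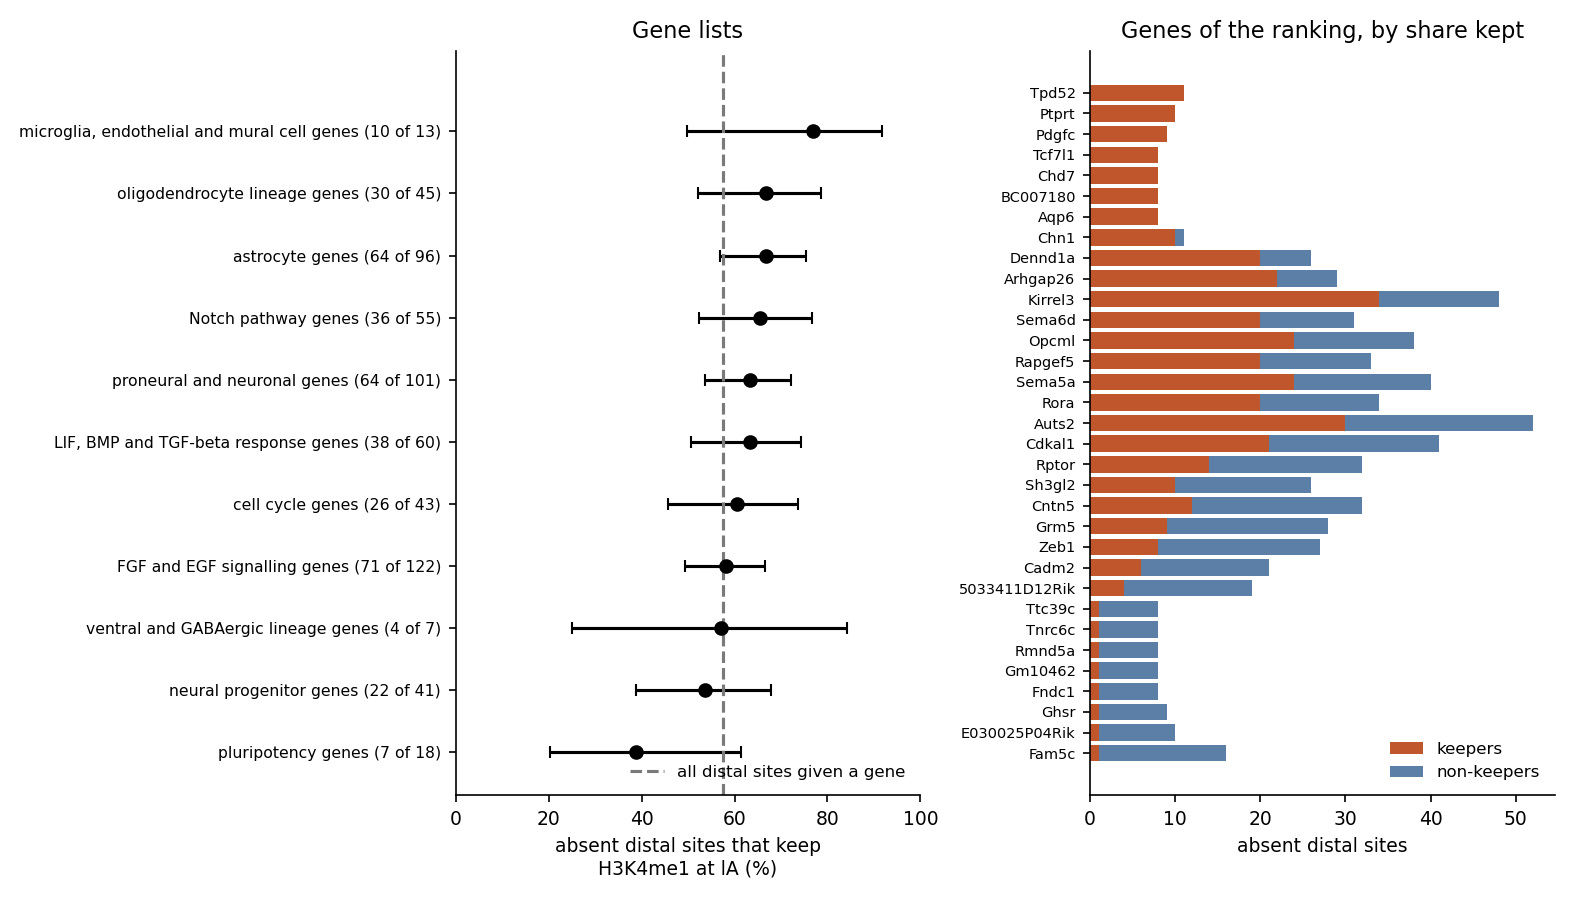
Left, percentage of absent distal sites that keep H3K4me1 at lA for 11 gene lists, with 95% Wilson intervals and the counts in brackets, beside the 57.5% of all distal sites with a gene (dashed). Right, number of keepers (orange) and non-keepers (blue) at the ranked genes, ordered by share kept. All 11 intervals include the dashed line.

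For the gene lists, the share of keepers is read against that 57.5%, and the share of sites absent against 45.9%. The absent share was 58.9% (47.4 to 69.5%) for the cell cycle list, 58.4% (50.9 to 65.5%) for proneural and neuronal genes and 54.5% (47.9 to 60.9%) for FGF and EGF signalling, with intervals above 45.9%. It was 36.6% (28.3 to 45.8%) for neural progenitor genes, 36.0% (30.4 to 41.9%) for astrocyte genes and 35.1% (28.3 to 42.5%) for the LIF, BMP and TGF-beta list, with intervals below it. The intervals of the other 5 included 45.9%, with 56.2% (39.3 to 71.8%) for pluripotency, 51.1% (40.9 to 61.3%) for the oligodendrocyte lineage, 43.8% (23.1 to 66.8%) for ventral and GABAergic genes, 40.6% (25.5 to 57.7%) for microglia, endothelium and mural cells and 40.4% (32.6 to 48.8%) for Notch. Sites of 1 gene are not independent, so these intervals are too narrow as a comparison of lists. The 95% interval of the share of keepers included 57.5% in all 11 lists. Neural progenitor genes had 22 keepers of 41 absent sites (53.7%, 38.7 to 67.9%). Msi2, an RNA-binding protein of progenitors, held 17 of these sites with 9 keepers, mostly in its introns and as far as 212 kb from the start site. Olig2 had 5 sites with 2 keepers, Sox2 3 with 1, Gli3, an effector of hedgehog signalling, 3 with 2, and Lhx2, a homeobox gene of the forebrain, 3 with 3. At Lhx2 the absent promoter peak was a keeper as well (chr2:38205765-38206425, −log10 q 55.0), as were the absent promoter peaks of Pax6 and Nr2e1, both regulators of neural stem cells. The promoters of Lhx2 and Pax6 were still acetylated at lA beside these peaks, with lA H3K27ac 0.182 and 0.311 kb away, whereas the Nr2e1 promoter had no lA H3K27ac peak. The absent promoter peak of Msi1, which is 1 of its 2 promoter peaks, had no H3K4me1 at any stage, while other parts of the Msi1 promoters carried both marks at lA.

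Cell cycle genes had 26 keepers of 43 absent sites (60.5%). Some of these lay within 1 kb past a start site, beyond the promoter stretch that ends at 100 bp. Such sites of Ccna2, Ccnb1, Ccne2, E2f2, Mcm2, Mcm5, Mcm6, Mki67 and Mycn were keepers, and those of Ccnd1 and Cdk6 were non-keepers. Ccnd2, a D-type cyclin, had 5 keepers of 6, the strongest with a −log10 q of 159 at chr6:127082985-127084067 in an intron. E2f1 and E2f2, activators of S-phase genes, had 4 of 5 and 3 of 4. By contrast, all 5 distal sites of Cdk6, the kinase partner of D-type cyclins, were non-keepers while its absent promoter peak was a keeper. The Cdk6 intron sites included chr5:3405537-3405962, which had H3K4me1 in aNPC and eA and lay 10250 bp from the nearest lA H3K4me1 peak. Myc, a proto-oncogene of growth, had 3 absent sites, none with H3K4me1 at any stage and all over 10 kb from lA H3K4me1. At Cdkn1b, an inhibitor of cyclin-dependent kinases, 1 of 4 sites was a keeper. The absent promoter peak of Ccnd1, with a −log10 q of 69.4, was a non-keeper, as was the site 0.593 kb into the gene with 74.0. Both had an lA H3K4me1 peak within 1 kb, at 571 and 618 bp.

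FGF and EGF signalling genes, whose ligands were in the aNPC medium, had 71 keepers of 122 absent sites (58.2%). Etv1, Etv5 and Etv4, ETS factors induced by FGF, had 12 keepers of 22, 9 of 13 and 4 of 8, and Spred1, an inhibitor of Ras signalling, 7 of 12. The Etv5 keeper chr16:22389225-22389402 had H3K4me1 in eA and lA and none in aNPC. Among other feedback inhibitors the outcome varied from gene to gene. Spred2 kept H3K4me1 at 6 of 6 and Spry4 at 3 of 3 sites, and Spry2 and Dusp4, a phosphatase of MAP kinases, at 1 of 5 each. The 1 keeper at Dusp4 was its strongest site (chr8:35877684-35879337, −log10 q 45.6), with H3K4me1 at all 3 stages.

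In the Notch pathway 36 of 55 absent sites were keepers (65.5%). Jag1, a Notch ligand, had 11 of 13, Maml3 and Maml2, coactivators of the Notch complex, 6 of 8 and 6 of 7, and Hes1, the target repressor, 1 of 5. Proneural and neuronal genes had 64 of 101 (63.4%), with 12 of 16 each at Map2, a dendritic cytoskeleton protein, and Ebf1, a neuronal differentiation factor, 8 of 15 at Myt1l and 7 of 12 at Insm1, both regulators of neuron formation. Ventral and GABAergic lineage genes had 4 of 7, of which Gad1, an enzyme of GABA synthesis, had 2 of 3.

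Astrocyte genes, many of which were acetylated before lA, had 64 keepers of 96 absent sites (66.7%, 56.8 to 75.3%). Nfib and Nfia, nuclear factors I of gliogenesis, had 16 of 25 and 10 of 17, and Zbtb20, a factor of astrocyte formation, 16 of 23. Slc1a3, a glial glutamate transporter, and Slc1a2, its relative, had 4 of 5 and 3 of 5. At the Slc1a3 intron site chr15:8656023-8656280, H3K4me1 was found in lA and in neither earlier stage, and an lA H3K27ac peak lay 0.340 kb away. At the promoter of S100b, a calcium-binding protein of astrocytes, the aNPC H3K27ac peak (chr10:75715881-75716388) was absent at lA with H3K4me1 at all 3 stages. The 2 absent promoter peaks of Nfix and that of Aldoc, an aldolase of astrocytes, were non-keepers. Both genes had other promoter peaks that were still acetylated at lA, and lA H3K27ac lay 0.222 and 0.910 kb from the Nfix peaks and 0.727 kb from that of Aldoc.

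LIF, BMP and TGF-beta response genes had 38 of 60 (63.3%), with 8 of 10 at Smad7, an inhibitor of that signalling, and 6 of 9 each at Lifr, the LIF receptor, and Smad3, a signal transducer. At Runx1 and Runx2, related transcription factors, the sites kept were 1 of 5 and 4 of 4. Oligodendrocyte lineage genes had 30 of 45 (66.7%), with the most absent sites at Olig1 (4 keepers of 8), Nkx2-2 (5 of 7) and Nkx6-2 (4 of 6). Sox8 had 4 keepers of 4 and Cspg4, a proteoglycan gene of oligodendrocyte precursors, 4 of 5, and Olig2 is also in this list. Pluripotency genes had 7 of 18 (38.9%, 20.3 to 61.4%), with 2 of 5 at Esrrb, 1 of 4 at Tfcp2l1, and 2 of 3 at Klf4. Genes of microglia, endothelium and mural cells had 10 of 13 (76.9%, 49.7 to 91.8%), 4 of 4 of them at Tek, an endothelial receptor. Their promoters were seldom acetylated, at 1 of 18 genes in aNPC, and whether other cells contributed was not tested.

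The sequence under the summits differed little between the outcomes. In 200-bp windows at distal sites, the median G+C content was 47.5% for keepers and 46.5% for non-keepers. The share of keepers went from 50.2% in the quintile with the lowest G+C to 60.4% in that with the highest. H3K4me1 in aNPC moved with it, from 66.1% to 79.1% of sites. At least 5 CpG were found in 14.4% of keeper windows, 11.1% of non-keeper windows and 28.5% of windows still acetylated.

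Exact matches to 10 short motifs were counted on both strands of the same windows, with no correction for overlap between motifs. The letters TTGGCA, a partial site of nuclear factor I, were found in 12.9% of keeper and 11.2% of non-keeper windows, a difference of 1.72 points (1.02 to 2.42). The letters GGAATG of Tead factors were found in 11.9% of keeper windows, 1.71 points more than in non-keeper windows (1.04 to 2.38). Both, and ACAAAG of Sox factors, were higher in keepers in all 5 quintiles of G+C content. The intervals of the other 8 included 0: ACAAAG of Sox factors (18.4% and 17.6%), the E-boxes CAGCTG (12.5% and 12%) and CACGTG (2.80% and 2.68%), TAATTA of homeodomain factors (4.03% and 4.20%), the POU octamer ATGCAAAT (1.19% and 1.15%), TGACTCA of AP-1 (4.06% and 3.78%), TGTGGTT of Runx factors (4.45% and 4.29%) and TGACGTCA of Atf and Creb factors (0.117% and 0.162%). Between sites with H3K4me1 at all 3 stages and at none, CAGCTG differed by 2.50 points (1.59 to 3.37), TTGGCA by 2.71 (1.80 to 3.58), ACAAAG by 1.14 (0.0509 to 2.20) and GGAATG by 0.994 (0.0937 to 1.87), all higher with H3K4me1, and the intervals of the other 6 included 0. Within quintiles of G+C content, CAGCTG was higher in keepers in 2 of 5. Over all distal aNPC H3K27ac windows, 11.6% held TTGGCA, 11.2% GGAATG, 17.3% ACAAAG, 12.4% CAGCTG, 2.77% CACGTG, 3.54% TAATTA, 0.983% ATGCAAAT, 3.79% TGACTCA, 4.12% TGTGGTT and 0.150% TGACGTCA. A match describes the letters only and does not show that a factor binds there.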

How the data were processed

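ChIP-seq of H3K27ac and H3K4me1 in aNPC, eA and lA was analysed from 6 deposited peak lists. The authors aligned reads uniquely to mm9 with Bowtie, merged the 2 replicates of each stage and mark with SAMtools (version 0.1.19 in the submitters' processing notes) and called peaks with MACS2 at default settings and without input. The deposited fold of a peak is its enrichment ratio over the local background. The deposited −log10 values are of the q-value. Both served only to rank, filter or describe peaks of 1 list, since read depth is unknown here. RNA-seq and knockdown samples of the series were not used here.

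Peaks on chromosomes 1 to 19 were kept and overlapped by at least 1 bp. Classes followed the peak centre and 46035 coding start sites of GENCODE M1, in the order promoter, exon, intron, intergenic. Sequences were read from the NCBIM37 (mm9) genome, in which no peak ended past a chromosome. Of 216 names in the gene lists, 214 matched a coding gene, 3 of them through an older symbol. Up to 4 genes per list with the most absent distal sites, the 10 genes with the most keepers and the 10 with the most non-keepers, and the 8 highest and 8 lowest shares among genes with at least 8 such sites were named, as were the strongest sites. Other genes and sites in the text were picked from the lists after their values were seen. The members and lists were chosen with earlier results of these data known. No test over samples was possible with 1 list per stage and mark. Wilson and Newcombe intervals at 95% were computed. The overlap code was tested on simulated data. Python 3.11.15, pandas 2.3.3, numpy 2.4.6, pysam 0.24.0 and matplotlib 3.10.9 were used. Alternatives changed the threshold, the overlap, the length of the lists, the chromosomes, the distance to acetylated regions, the promoter and the distance to a gene.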

Additional observations from a re-analysis of the deposited data

How the results depend on the processing

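When all lists were restricted to peaks whose −log10 q was 5 or more, the share of aNPC H3K27ac peaks with lA H3K4me1 was 71.7%, the share absent 44.2%, the share of absent peaks that kept H3K4me1 58.8%, the promoter difference −0.290 points (reversed from 5.16, with an interval of −2.87 to 2.25 that includes 0), and the difference in aNPC H3K4me1 39.8 points. With the H3K27ac summit inside the other peak, the first 3 were 55.8%, 51.8% and 46.3%. With 50% of the peak covered they were 55.9%, 53.9% and 46.6%, and with peaks within 500 bp 84.8%, 37.2% and 67.8%. With lists of equal length they were 50.1%, 48.7% and 32.1%. With X and Y the first was 71.7%. The share of lA H3K4me1 peaks with aNPC H3K27ac was 33.1% within 500 bp and 42.8% with lists of equal length. The kept share was 53.0% over 1 kb from lA H3K27ac, 62.4% after absent peaks within 1 kb of each other were joined and 49.8% for peaks absent from eA too. The promoter difference was 14.8 points over 1 kb from lA H3K27ac and 7.71 with promoters of 1 kb on either side. Alternatives chosen after seeing the data, for peaks still acetylated minus absent, gave 23.1 points with that restriction, 19.7 with summits and 35.1 with equal lists. For eA H3K27ac they gave 25.5, 25.4 and, over 1 kb from lA H3K27ac, 38.1 points, and for aNPC H3K4me1 44.8 with equal lists. With summits, the widest and narrowest quintiles differed by 15.7 points and the highest and lowest of −log10 q by 15.4. The other 9 of 43 values stayed within the interval of the reported one, or within 1.5 times for genes. The reduced lists hold fewer H3K4me1 peaks by construction, and the cause of the other shifts was not tested. No paired analysis was possible because replicates were merged before peak calling, which also left no replicate to leave out and no error between cultures.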
